A study of Rattus norvegicus with 9 samples.

Results

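The mechanistic target of rapamycin (mTOR) is a protein kinase that couples growth signals and nutrients to protein synthesis. Growth factors activate the AKT kinases, which switch off the complex of Tsc1 and Tsc2, a brake on the small GTPase Rheb that turns mTOR on. Active mTOR phosphorylates ribosomal protein S6 kinase, encoded by Rps6kb1, and the translation repressor encoded by Eif4ebp1. Mutations that overactivate this pathway in the developing brain are a known cause of focal cortical dysplasia and of tuberous sclerosis, and its activity is set largely by phosphorylation, which RNA levels do not show.

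The genes described here are 8 components of that pathway, chosen by name. Of these, 7 had a probe with their symbol in the platform's annotation, each with 1 probe, out of 10687 named probes. Rheb had none and was dropped. RNA was measured on Illumina bead arrays in the cerebral cortex of 9 rats of the outbred Sprague-Dawley stock. Males gave 4 arrays and females 5, each from a different animal. All 9 had received 145 cGy from a caesium source before birth, on gestation day 17, and their cortex was taken at 60 days of age. Irradiation at this stage serves here to model dysplasia of the cortex. Unirradiated animals were not analysed here, so no value below measures an effect of radiation. A number in each sample title, of unexplained meaning, took 3 values. The first title number belonged to males 1 and 2 and female 1, the second to males 3 and 4 and females 2 and 3, and the third to females 4 and 5.

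Markers of cortical tissue were present in all animals. All 6 general neuronal genes, 6 glutamatergic neuron genes, 7 interneuron genes, 6 astrocyte genes and 7 oligodendrocyte genes with a named probe exceeded the background bound on all 9 arrays. So did all 8 genes of the neighbouring striatum, 3 of 6 genes of the hippocampus, 1 of 6 of the choroid plexus, 4 of 5 of microglia, 2 of 4 of endothelium, 3 of 6 of the meninges and 2 of 3 of blood. The bound is an intensity of 46.6 to 54.1, set on each array from probes that the authors had left out of their value table. The first principal component of the 12370 probes tested held 33.5% of the variance. On it male 2, female 1 and female 3 scored 16.1 to 19.0 and the other 6 arrays -13.1 to -4.53. These 3 arrays span both sexes and the first and second title numbers. Fewer cells of a type and less RNA per cell cannot be told apart in these tissue samples, and precision is limited by how few arrays there are.

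Of the 7 genes, 6 exceeded the bound on all 9 arrays and Tsc1 on 8. Mtor and Tsc2 were read far above it, with raw intensities of 6.91 to 9.62 and 5.40 to 9.15 times the bound. Akt1 stood at 2.95 to 4.39 times the bound, Eif4ebp1 at 3.07 to 4.36 and Rps6kb1 at 1.88 to 3.05. Akt2 stood at 1.02 to 1.29 times the bound and Tsc1 at 0.912 to 1.20. Differences between animals in Akt2 and Tsc1 are therefore read close to background.

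Mtor, the kinase itself (probe ILMN_1361395), varied least. Its raw intensity ran from 322 in male 4 to 454 in female 4. On the normalised log2 scale it read 8.47, 8.61, 8.60 and 8.36 in males 1 to 4 and 8.45, 8.54, 8.66, 8.72 and 8.56 in females 1 to 5. Male 4 lay below every female and females 3 and 4 above every male, while the other animals overlapped. The highest animal stood 1.29-fold above the lowest. Its standard deviation within the sexes, 0.11, was at the 16.7th percentile of the probes tested, whose median was 0.17.

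The genes of the brake spanned similar ranges on the log2 scale, with Tsc1 read close to background. Tsc1 (ILMN_1350934), the scaffold of the complex, read 5.41, 4.86, 5.14 and 5.12 in the males and 5.13, 5.10, 5.28, 5.33 and 5.35 in the females. Male 2, the lowest, was the animal that did not exceed the bound. The standard deviation of Tsc1 within the sexes was 0.17, at the 53.6th percentile, and its highest animal stood 1.47-fold above its lowest. Tsc2 (ILMN_1373092), the subunit that acts on Rheb, read 8.65, 8.08, 8.54 and 8.53 in the males and 8.18, 8.53, 8.14, 8.66 and 8.42 in the females. Male 2, female 3 and female 1 held its 3 lowest values, clear of the other 6 animals, in both sexes. Its standard deviation within the sexes was 0.23, at the 79.4th percentile of the probes tested, and the highest animal stood 1.49-fold above the lowest.

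Of the upstream kinases, Akt1 (ILMN_1353102), the broadly expressed form, read 7.09, 7.21, 7.02 and 7.19 in the males and 7.48, 7.21, 7.41, 7.39 and 7.03 in the females. In 3 of 5 females, females 1, 3 and 4, it was above every male, while female 5 lay within the male range. Akt2 (ILMN_1372084), the form best known from insulin-driven glucose uptake, read 5.55, 5.08, 5.56 and 5.35 in the males and 5.14, 5.42, 5.52, 5.23 and 5.43 in the females. Male 2 and female 1 were lowest, and the sexes covered nearly the same range.

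Of the targets, Rps6kb1 (ILMN_1356036) read 6.46, 6.69, 6.36 and 6.41 in the males and 6.90, 6.29, 6.69, 6.44 and 6.33 in the females. Female 1, male 2 and female 3 held its 3 highest values, and the highest animal, female 1, stood 1.52-fold above the lowest, female 2. Eif4ebp1 (ILMN_1353239), whose protein holds back cap-dependent translation until mTOR phosphorylates it, read 7.48, 7.19, 7.34 and 7.53 in the males and 7.13, 7.68, 7.36, 7.26 and 7.46 in the females. Female 1 was lowest and female 2 highest, so that the females alone spanned the whole range. The plot of values by animal shows all 7 genes on axes of equal span.

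**Figure D1:**
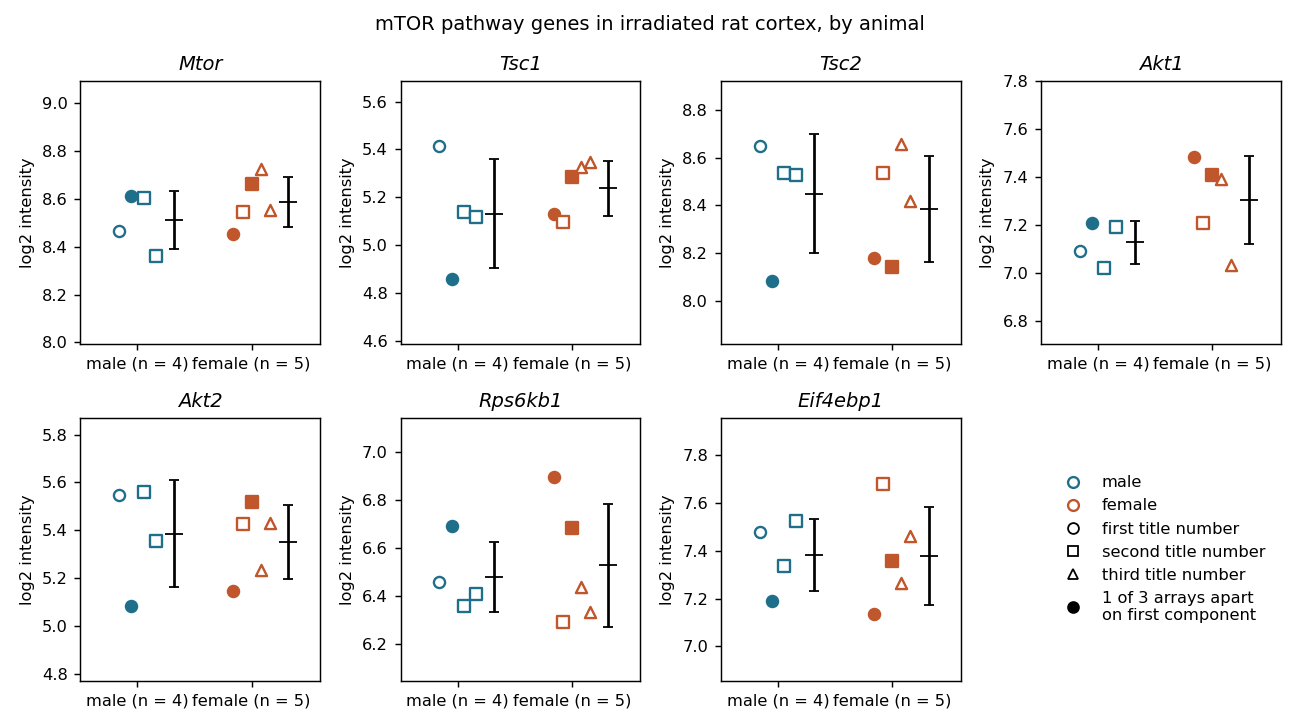
Normalised log2 intensity of the 7 genes in each animal, by sex, with the mean and SD of each sex beside the points (4 males, 5 females). Marker shape gives the title number, and filled markers are the 3 arrays apart on the first principal component, which hold the 3 lowest values of Tsc2 and the 3 highest of Rps6kb1.

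Males and females, the only groups the labels give, were compared to see whether the genes differed with sex in irradiated cortex. None of the 7 passed the test, limma's moderated test with Benjamini-Hochberg adjustment over all 12370 probes, at an adjusted p of 1.00 for each. Among all probes tested 0 were called (0%), and 239 (1.93%) had an unadjusted p under 0.05, to which the 7 genes contributed 0. At 0.001, the threshold that the series' design text names, the counts were 5 of all probes (0.0404%) and 0 of the 7 genes. In 0 of the 7 did the values of the sexes fail to overlap, against 0.792% of all probes.

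The widest difference was that of Akt1, at 7.13 ± 0.09 (SD, n = 4) for males against 7.31 ± 0.18 (SD, n = 5) for females. Male minus female was -0.18 ± 0.11 (SE) on the log2 scale, at an unadjusted p of 0.115 in limma. The 95% interval of that difference covers a male level of 0.755 to 1.04 times the female level. Akt1 was lower in males within the first title number, by -0.34, and within the second, by -0.20, which are differences between means of 1 or 2 animals per sex. Females 1 and 3, high in Akt1, are among the 3 arrays apart. Without those 3 arrays, male minus female was -0.11.

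The other differences were smaller than their errors. Tsc1 differed by -0.10 ± 0.11 (male minus female, SE), Mtor by -0.08 ± 0.09 and Rps6kb1 by -0.05 ± 0.13. Tsc2 differed by 0.06 ± 0.14, Akt2 by 0.04 ± 0.12 and Eif4ebp1 by 0.00 ± 0.12, and the sign of Eif4ebp1 turned to -0.03 under median scaling. Inside the first title number and inside the second, Tsc2 differed by 0.19 and 0.19, and Rps6kb1 by -0.32 and -0.11. For Mtor these values were 0.09 and -0.12, for Eif4ebp1 0.20 and -0.09, for Akt2 0.17 and -0.01 and for Tsc1 0.01 and -0.06, so the sign changed between the title numbers. The differences inside title numbers also hold the split of the arrays, with female 1 and male 2 apart in the first and female 3 in the second. Without the 3 arrays apart, the sexes differed by 0.036 for Tsc2 and 0.055 for Rps6kb1. The intervals bound what could have been missed. For Mtor the 95% interval reached from 0.826 to 1.09 times the female level, and for Tsc2, the widest upward, from 0.849 to 1.29 times.

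**Figure D2:**
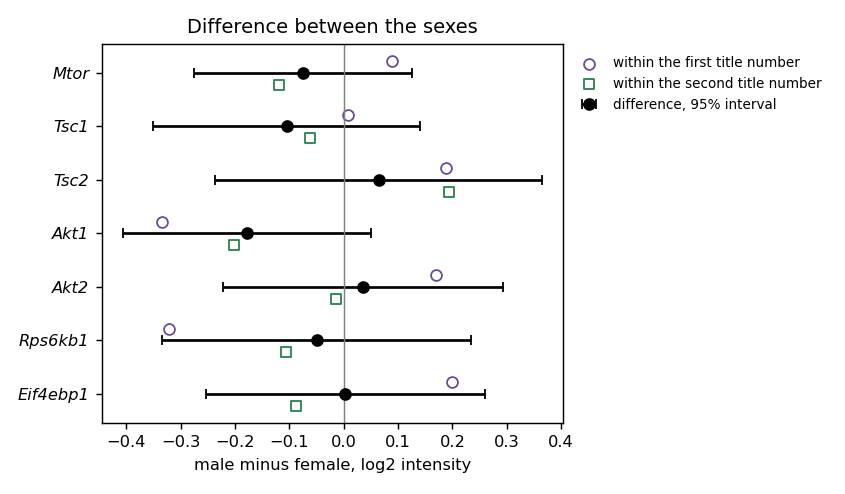
Male minus female difference of the 7 genes on the log2 scale with its 95% interval from limma (4 males, 5 females), and the difference within the first and within the second title number. All 7 intervals include 0, and the fitted difference furthest from 0 is that of Akt1 at -0.18.

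The title numbers were compared by a moderated F test in limma that also held sex, since they may mark a litter or a batch, which the labels do not say. In that test 0 of 12370 probes were called (0%), with 1141 (9.22%) at an unadjusted p under 0.05 and 0 of the 7 genes among them. Rps6kb1 came nearest, with means adjusted for sex of 6.72 for the first title number, 6.44 for the second and 6.29 for the third (unadjusted p 0.0523, adjusted p 0.544 in limma). The adjusted means of Tsc2 were 8.27, 8.44 and 8.63, at an adjusted p of 0.689. The other 5 had adjusted p from 0.711 to 0.929. The third title number held no males, so its adjusted means were extrapolated by the model. Its animals, females 4 and 5, read 6.44 and 6.33 for Rps6kb1 and 8.66 and 8.42 for Tsc2. Of the 3 animals with the first title number, 2 are among the arrays that stand apart, so title number and that split overlap. All 3 also had a higher raw median intensity, 53.6 to 57.3, than every other animal, 47.9 to 50.5. The part of array brightness in the differences between title numbers was not tested.

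Tsc2 and Rps6kb1 followed the split of the arrays and lay on opposite sides of it. In female 1, male 2 and female 3 Tsc2 ranged from 8.08 to 8.18, against 8.42 to 8.66 in the other 6 animals. Rps6kb1 ranged from 6.69 to 6.90 in those 3, against 6.29 to 6.46. Pearson's r with the first component over the 9 arrays was -0.93 for Tsc2 and 0.93 for Rps6kb1, a description without a test, since both genes are among the probes that define the component. For the other genes r was 0.54 for Akt1, 0.04 for Mtor, -0.37 for Tsc1, -0.41 for Akt2 and -0.64 for Eif4ebp1, and their 2 sets of arrays overlapped. Such a separation was common in the table. The 3 arrays lay above all others for 1264 probes (10.2%) and below all others for 1325 (10.7%), 20.9% in all, so 2 of 7 genes is near the share of all probes. An r of at least 0.9 in size was rarer, found for 720 probes (5.82%) and for 2 of the 7 genes, Tsc2 and Rps6kb1. That count was not tested.

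No marker list of another cell type separated these 3 arrays from the rest. Scores are the mean log2 deviation of a list from its mean over all animals. General neuronal genes scored 0.06 to 0.13 in the 3 arrays and -0.09 to 0.07 in the others, and oligodendrocyte genes -0.26 to 0.21 against -0.94 to 0.60. Choroid plexus genes scored 1.96 in female 1 but -0.42 and -0.31 in male 2 and female 3, against -0.80 to 0.63 in the others. Raw median intensity was 57.3, 53.6 and 49.2 in female 1, male 2 and female 3, against 47.9 to 54.3 in the other 6. Female 1 was thus brighter than all of those. Raw brightness did not separate the 3 arrays but followed the title number. Male 1, male 2 and female 1, which share the first title number, read 53.6 to 57.3. All animals with another title number read 47.9 to 50.5. The part of cell makeup or RNA quality in the split was not tested.

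**Figure D3:**
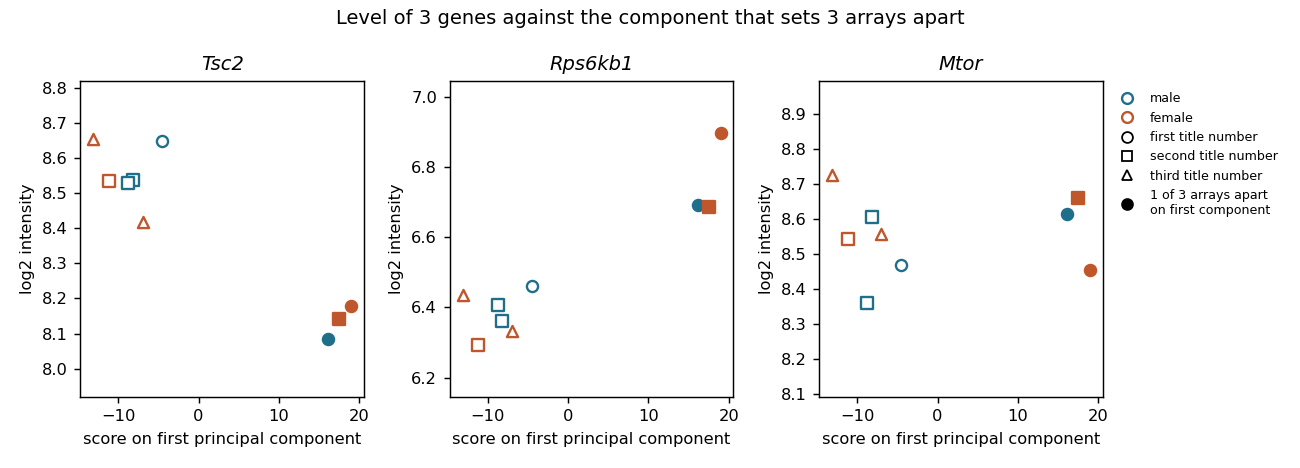
Log2 intensity of Tsc2, Rps6kb1 and Mtor in 9 animals against the score on the first principal component of 12370 probes. The 3 filled markers are female 1, male 2 and female 3, which lie lowest for Tsc2, highest for Rps6kb1 and within the others for Mtor.

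Of the 8 genes, 7 had a promoter window in the RefSeq table used, and those of these 2 are shown because the genes took opposite sides of the same split. They are the 250 bases before the annotated start in RefSeq's rat assembly GRCr8, for Tsc2 chr10:14160240-14160489 and for Rps6kb1 chr10:71865212-71865461, both on the minus strand of chromosome 10. Capitals mark matches, on either strand, to any of 6 short motifs chosen with these sequences in view.
Tsc2: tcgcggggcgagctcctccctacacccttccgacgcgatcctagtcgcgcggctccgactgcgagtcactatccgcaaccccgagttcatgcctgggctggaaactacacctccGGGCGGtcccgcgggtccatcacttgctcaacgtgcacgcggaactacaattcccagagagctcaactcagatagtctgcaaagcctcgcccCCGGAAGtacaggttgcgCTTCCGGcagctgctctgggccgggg
Rps6kb1: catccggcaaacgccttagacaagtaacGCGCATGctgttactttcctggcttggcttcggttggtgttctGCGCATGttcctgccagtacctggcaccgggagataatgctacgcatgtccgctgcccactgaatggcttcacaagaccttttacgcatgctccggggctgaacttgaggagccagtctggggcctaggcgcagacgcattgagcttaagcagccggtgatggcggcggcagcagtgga

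The Tsc2 window held 2 matches to CCGGAAG, the core bound by ETS factors, which occurs in 7.27% of 33469 promoter windows of the same length, and 1 to the GC box GGGCGG, which occurs in 30.5%. The Rps6kb1 window held 2 matches to GCGCATG, letters from within the site of the factor NRF1, found in 3.26% of windows. The windows had no motif in common among the 6, the others being CCAAT (34.0% of windows), the E-box CACGTG (5.59%) and TATAAA (12.9%). Both held more CpG dinucleotides than the median of 5, with 25 in Tsc2 (90.3rd percentile of windows) and 16 in Rps6kb1 (76.2nd percentile). These matches describe the letters alone.

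Because the animals fall into 2 clusters for Tsc2 and Rps6kb1, no coefficient over all 9 is given for that pair. Within the 6 arrays that were not apart, r was 0.74 and Spearman's rho 0.66, at an exact permutation p of 0.0972 (two-sided, n = 6), adjusted to 0.886 over the 21 pairs of genes. The relation within the 6 animals thus ran upward, while the 3 arrays apart combined low Tsc2 with high Rps6kb1. Over all 9 animals 0 of 21 pairs passed after adjustment, with 3 at an unadjusted exact permutation p of r under 0.05, each with Rps6kb1 in it. For rho, only Rps6kb1 and Eif4ebp1 had an exact permutation p under 0.05, at 0.0369, adjusted to 0.528. Within the 6 animals, r of Rps6kb1 was -0.52 with Eif4ebp1 and 0.30 with Akt1 (exact permutation p 0.289 and 0.576). Akt1 and Akt2 had the smallest p within the 6 animals. Their r was -0.88 and their rho -0.89, at an exact permutation p of 0.0167 (n = 6), adjusted to 0.35, against an r of -0.52 and a rho of -0.63 over all 9 (exact permutation p 0.153 and 0.0760). Without the 2 of the 9 animals farthest from the median of Akt1, r was -0.68. The adjusted p over all 9 was 0.357 for r and 0.532 for rho. Akt2 was read close to background, at 1.02 to 1.29 times the bound. Mtor had no unadjusted p under 0.05 with any other gene, its largest r over all 9 being -0.32 with Eif4ebp1 (rho -0.38, exact permutation p 0.394 and 0.313, adjusted to 0.637 and 0.547, and r -0.03 without 2 animals). Within the 6 animals, that pair had an r of -0.63 (exact permutation p 0.161, adjusted to 0.886) and a rho of -0.83. Under median scaling the largest r of Mtor over all 9 was 0.53, with Akt1 (exact permutation p 0.164).

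**Figure D4:**
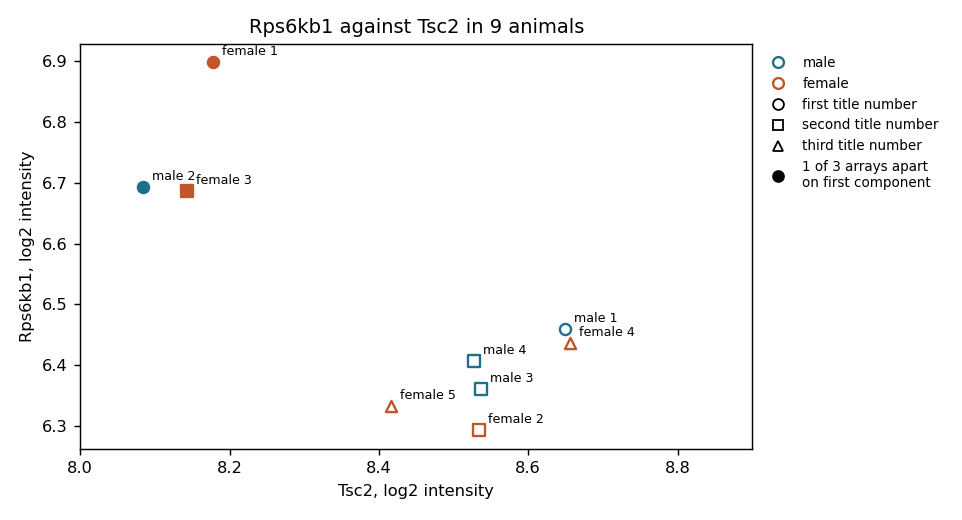
Log2 intensity of Rps6kb1 against Tsc2 in 9 animals, with marker shape for the title number and filled markers for the 3 arrays apart. The filled points lie at low Tsc2 and high Rps6kb1, and among the other 6 points r was 0.74.

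For each gene above the bound throughout, the genes whose log2 values followed it most closely over the 9 animals were picked from 8576 others. These coefficients are descriptions without a test, since each is the highest of many. Mtor was followed by Prss12, a serine protease of neurons, at an r of 0.94, and by Myt1, a zinc finger factor of neural development, at 0.93. Tsc2 was followed by Lsg1, a GTPase of ribosome assembly, at 0.98, and by Cbs, an enzyme that makes cystathionine, at 0.98. Rps6kb1 was followed by Zfp207, a zinc finger protein of spindle assembly, and by Nln, a peptidase of neuropeptides, both at 0.98. Lsg1 and Cbs were lowest in the 3 arrays apart, and Zfp207 and Nln highest, so these coefficients hold that split. Within the 6 other arrays, r with Tsc2 was 0.84 for Lsg1 and 0.81 for Cbs. With Rps6kb1 it was 0.86 for Zfp207 and 0.99 for Nln. For Akt1 the closest were Ppp1r3b, a glycogen-targeting phosphatase subunit, at 0.94, and Ly6g6e at 0.94. Both were read close to background, Ppp1r3b at 1.08 to 1.19 times the bound and Ly6g6e at 1.01 to 1.41 times. For Akt2, itself close to background, the closest were Pdcd7, a splicing protein, at 0.95, and Med8, a Mediator subunit, at 0.93. For Eif4ebp1 they were Abtb2 at 0.96 and Ndufb8, a subunit of respiratory complex I, at 0.93. Some of these likenesses depended on the scaling. Under median scaling the r of Mtor with Prss12 was 0.73, of Akt2 with Pdcd7 0.79 and of Akt2 with Med8 0.68.

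The wider pathway was followed through 94 genes in 7 lists, including the 8 named above. A named probe was found for 70, of which 64 were tested. Insr, Irs2, Pik3cd, Prkab2, Foxo3 and Grb10 were not, as they exceeded the bound on 0 to 3 arrays. None of the 64 was called between the sexes or between title numbers, and none had an unadjusted p under 0.05 between the sexes in limma. The median difference (male minus female, log2) was -0.01 over the 64 and 0.00 over all 12370 probes. Of the 64, 26 had a higher mean in males and 38 in females, against 50.9% higher in males among all probes. Marker genes of other cells and regions also differed in mean between the sexes, with none called. All 7 oligodendrocyte genes had a higher mean in males, at a median of 0.25, and so had 5 of 6 meningeal genes, at 0.20. In females 7 of 8 striatal genes had a higher mean, at a median of -0.39, and all 4 choroid plexus genes tested, at -0.63. Female 1 scored 1.96 for choroid plexus, against -0.51 to 0.63 in the other females. Higher in males were also 5 of 6 general neuronal genes, 5 of 6 glutamatergic genes, 4 of 6 astrocyte genes and 2 of 2 blood genes tested. The same held for 3 of 7 interneuron genes, 2 of 5 of microglia, 2 of 4 of endothelium and 1 of 4 of the hippocampus tested. The list scores of the sexes overlapped, and the part of these cells and regions in the pathway differences was not tested.

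Of the mTOR complex subunits, 5 of 7 tested had a higher mean in males, at a median of 0.03 that turned to -0.058 without the 3 arrays apart. Mlst8, a subunit of both mTOR complexes, differed by 0.05 ± 0.10 (male minus female, SE) and Prr5l, a regulator of the second complex, by -0.13 ± 0.10, although only 1 of 4 male arrays and 3 of 5 female arrays read Prr5l above the bound. Of the genes that carry insulin and growth factor signals, 1 of 8 tested had a higher mean in males, at a median of -0.08. That median was -0.20 without male 2, -0.032 without female 1 and -0.22 with the title number as a block. The catalytic subunit Pik3cb differed by -0.25 ± 0.13, at an unadjusted p of 0.0740 in limma, and the adaptor Irs1, with as few arrays above the bound, by -0.10 ± 0.08. In the list of TSC and Rheb, Rhebl1, a relative of Rheb, differed by 0.14 ± 0.10 and Tbc1d7, the third subunit of the brake, by -0.06 ± 0.15.

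Inputs from energy, stress and amino acids showed medians near 0. Of 11 energy and stress genes, 4 had a higher mean in males, at a median of -0.01. Sesn1 and Sesn3, sestrins that restrain mTOR under stress, differed by -0.21 ± 0.10 and -0.18 ± 0.11, at unadjusted p of 0.0547 and 0.135 in limma. Of 15 amino acid sensing genes, 6 had a higher mean in males, at a median of -0.01. Lamtor4, part of the lysosomal scaffold, differed by 0.11 ± 0.09 and Nprl3, part of the complex that inhibits the Rag GTPases, by 0.11 ± 0.10.

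The outputs also had medians near 0. Of 11 translation genes, 5 had a higher mean in males, at a median of -0.01. Rps6kb2, the second S6 kinase gene, differed by -0.18 ± 0.13, and Rps6, the ribosomal protein that these kinases phosphorylate, by 0.13 ± 0.11. Of 8 genes of autophagy, lipid and feedback output, 3 had a higher mean in males, at a median of -0.03. Sgk1, a kinase activated by the second mTOR complex, differed by -0.36 ± 0.29 and the autophagy factor Atg13 by -0.08 ± 0.12.

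**Figure D5:**
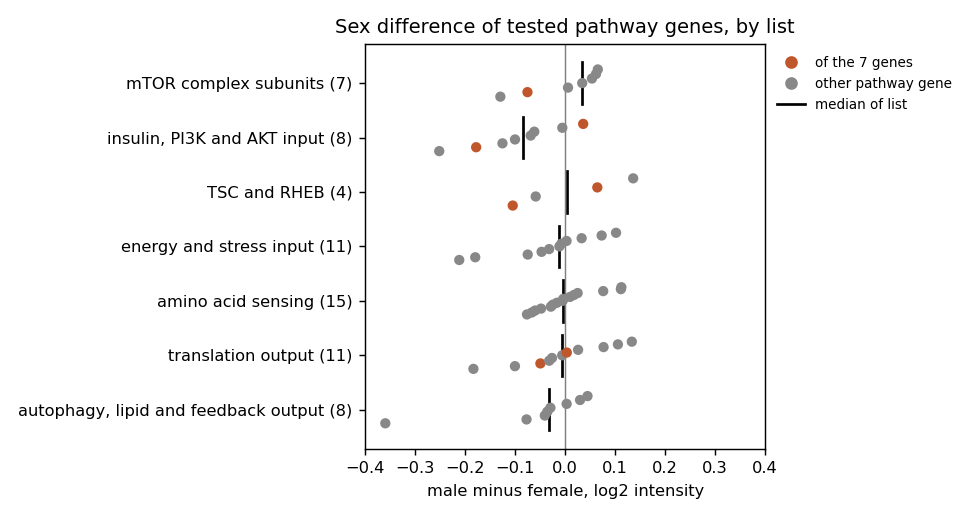
Male minus female difference on the log2 scale for the 64 tested pathway genes in 7 lists, with the number tested in brackets and the median of each list as a bar. The list medians lie between -0.08 and 0.03, and the lowest value is that of Sgk1 at -0.36.

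Between title numbers, 9 of the 64 pathway genes had an unadjusted p under 0.05 (14.1%), against 9.22% of all probes. Rb1cc1, a subunit of the complex that starts autophagy, had the smallest, at 0.00979 and an adjusted p of 0.516 in limma. Its means adjusted for sex were 9.29, 8.97 and 8.80 for the first, the second and the third title number. Eif4b, a helper of the cap-binding complex and a target of S6 kinase, had adjusted means of 8.76, 8.89 and 9.29 (adjusted p 0.516). The last is extrapolated, as the third title number held no males, and its animals, females 4 and 5, read 9.21 and 9.06. Tti1, which helps to assemble mTOR complexes, had adjusted means of 8.25, 7.91 and 7.94. Those of the regulatory subunit Pik3r3 were 6.05, 5.69 and 5.49, and those of the Rag GTPase Rraga 10.4, 9.99 and 10.2. Tti1, Pik3r3 and Rraga each had an adjusted p of 0.516. In the energy and stress list the smallest p was that of Prkaa1, a catalytic subunit of the energy sensor AMPK (adjusted p 0.606), and in the list of TSC and Rheb it was that of Tsc2, followed by Rhebl1 (adjusted p 0.734).

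The split of the arrays also ran through the pathway, at 15 of 64 genes tested (23.4%) against 20.9% of all probes. Besides Rps6kb1, the 3 arrays lay above the other 6 for Igf1r, Pdpk1, Rragc, Mios, Slc38a9, Eif4e, Eef2 and Gsk3b. Besides Tsc2, they lay below the others for Tbc1d7, Rhebl1, Lamtor2, Eif4b and Rps6. Pdpk1, the kinase that activates both AKT and S6 kinase, ranged from 10.8 to 11.3 in the 3 arrays and from 10.3 to 10.5 in the others. Lamtor2, part of the lysosomal scaffold, ranged from 9.97 to 10.03 in the 3 and from 10.3 to 10.6 in the others. These genes are named because of that separation, chosen after their values were seen, and the shares are near that of all probes.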

How the data were processed

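The authors' deposited array files hold 1 linear intensity per probe for 22517 probes, per the files not normalised between arrays. The authors' deposited value table holds log2 intensities of 15912 of them, quantile normalised to judge by their equal distributions. The scanner software is not given in the sources used here. In limma's normexp (offset 16), intensities were background corrected, then quantile normalised and log2 transformed, with limma 3.58.1 under R 4.3.3. The background bound was the 99th percentile of the 6605 probes left out of the value table, and probes above it on at least 4 arrays were tested. Fits (lmFit, eBayes) ran over all 12370 tested probes with Benjamini-Hochberg adjustment at 0.05, and were tested on simulated data. A gene's probe with the highest mean stood for it.

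The genes, lists, tests and alternatives were chosen with earlier results of these data known. Named genes were the 7 genes, per list the 2 others with the smallest p between the sexes and the 1 between title numbers, and the 2 closest followers of each gene. Replicate numbers only name animals. The labels do not say whether animals shared a litter. The main p-values rest on the spread between these samples as if all were independent, and do not account for shared litters. Correlations between genes were tested by exact permutation, over 362880 pairings for 9 animals and 720 for 6. The motifs and the genes that separate the 3 arrays were chosen after their values or letters were seen. Alternatives were other background steps, scaling, filters, the authors' log2 values, title number as a block, array weights, the first component as a covariate, and animals left out.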

Additional observations from a re-analysis of the deposited data

Results flagged for a closer look

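Among the 27 genes named for the comparisons, each examined in 4 males and in 5 females, 1 value of a single animal stood far from its group. Prkaa1 read 4.89 in male 4 and from 5.29 to 5.31 in the other males, a gap of 0.954 of the group's range. Male 4 did not exceed the background bound for this probe, so its level there is not well above background. Female 3 read 4.87, lower still, and was also not above the bound, while the other females read 5.25 to 5.44. Chance takes about 1 in 20 groups past the limit used, which is 0.829 for 4 samples, and 54 groups were examined.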

How the results depend on the processing

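None of the 21 genes tested between the sexes and none of the 14 tested between title numbers was called under any alternative, and 0 pathway genes were called. Between the sexes 0 probes were called under each alternative except for single animals left out, which gave 0 to 2. Between title numbers, array weights called 35 probes, no filter 1, leaving out the 3 arrays apart 1, and single animals left out 0 to 3. The cause was not tested. Signs of differences near 0 turned (male minus female, log2). Eif4ebp1 was -0.032 under median scaling, -0.020 without the 3 arrays apart, -0.022 with array weights and -0.016 with the first component as a covariate. Without those 3 arrays, Mlst8 was -0.039 and Rps6kb1 0.055. With single animals left out, Eif4ebp1 ranged from -0.058 to 0.078, Akt2 from -0.022 to 0.14, Rps6kb1 from -0.12 to 0.043, Tsc2 from -0.0023 to 0.19, Mlst8 from -0.0066 to 0.082 and Tbc1d7 from -0.16 to 0.048. Others kept their sign but moved, Tsc1 from -0.20 to -0.014, Mtor from -0.11 to -0.025, Rps6kb2 from -0.26 to -0.073, Rps6 from 0.077 to 0.20, Sesn3 from -0.24 to -0.10 and Sgk1 from -0.53 to -0.018. Akt1 kept its sign under every alternative, from -0.26 to -0.11. Of the 7 list medians, that of the insulin list alone kept its sign with each animal left out. Of 21 pairs of genes, 0 passed under each alternative. No paired analysis was possible because the replicate numbers only name the animals. With the title number as a fixed block, Akt1 was -0.26, Tsc2 0.19 and Rps6kb1 -0.19, and none was called. Without the 3 arrays apart and with no block, they were -0.11, 0.036 and 0.055. Median scaling moved the median difference of all probes to -0.03.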

Other observations

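Of the 64 pathway genes tested, Sgk1 varied most between animals of a sex. It read 10.9, 10.8, 9.60 and 11.1 in males 1 to 4 and 10.7, 11.6, 11.3, 10.5 and 10.9 in females 1 to 5, a 3.92-fold range with male 3 lowest and female 2 highest. Its standard deviation within the sexes, 0.56, was at the 99.3rd percentile of the probes tested. Sgk1 is also known to respond to glucocorticoids. Eef2k, the kinase that slows translation elongation, followed at 0.44 and a 2.18-fold range, and Pdpk1 at 0.40 and 1.98-fold. Without male 3, the difference of Sgk1 between the sexes moved from -0.36 to -0.02 (male minus female, log2).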
